A study of Homo sapiens with 6 samples.

Results

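Genes that were silent or nearly silent in DMSO-treated NALM6 cells and clearly detected after treatment with THZ1 were collected from the raw counts. A gene was taken when it had at most 3 counts in each of the 3 DMSO-treated libraries and at least 30 counts in each of the 3 THZ1-treated libraries. Of the 57905 genes in the count table, 319 met both limits. The rule leaves out antisense genes by symbol (13 ending in -AS plus a number), divergent transcripts (17 ending in -DT), histone cluster genes (1), small RNA genes (6) and MIR3648 (1). Another 20 identifiers had no entry in the annotation, so these classes could not be checked for them, and they were set aside. This left 261 genes, called the members here. With the same classes left out, the reverse rule, at most 3 counts in each THZ1-treated library and at least 30 in each DMSO-treated library, was met by 29 genes.

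NALM6 is a human line of leukemic B cell precursors (acute lymphoblastic leukemia). THZ1 blocks the kinase CDK7 by binding it covalently. RNA-SEQ was carried out on 3 libraries from NALM6 cells given the solvent DMSO and 3 from cells given 500 nM of THZ1, both for 24 h. Cells of both treatments carry no engineered change by their labels, and the labels do not say whether the libraries of a treatment come from separate cultures, so p-values measure only the spread between these libraries. The work rests on a single cell line, dose and time.

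CDK7 is a subunit of the general transcription factor TFIIH, and it phosphorylates the C-terminal domain of RNA polymerase II when transcription starts. It also activates other CDKs that drive the cell cycle. A gene that is silent in lymphoid cells is usually one that serves another tissue, such as a synaptic transporter, a muscle protein or a pituitary hormone. Such genes often have promoters poor in CpG dinucleotides, whereas the promoters of genes used in all cells are mostly rich in CpG. Annotated genes can also gain counts with no promoter of their own in use, when a neighbouring gene is read through its end or when reads of a host gene or of the opposite strand are assigned to them.

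The members' promoter windows were read first from RefSeq (GRCh38.p14), from 250 bases before to 50 bases after the annotated start, since sequence was not used to choose the members. A window was matched for 105 of the 261 members, 90 of them protein-coding. TATAAA, the core of the TATA box, which lies about 30 bases before the start of a gene and directs RNA polymerase II to begin there, was present on either strand in 9 of the 90 protein-coding windows. In 8 of these 9 it began 34 to 29 bases before the start on the gene's own strand. This distance was chosen after the positions were seen. The 8 stretches are shown from 60 bases before the start to 10 bases after it, each 5′ to 3′ on the gene's strand, with TATAAA in capitals.
HSPB6 (chr19:35757020-35757089, minus strand): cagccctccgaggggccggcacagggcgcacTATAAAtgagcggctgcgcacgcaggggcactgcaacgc
LY6G6C (chr6:31721737-31721806, minus strand): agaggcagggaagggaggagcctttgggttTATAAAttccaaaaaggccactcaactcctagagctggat
AQP3 (chr9:33447584-33447653, minus strand): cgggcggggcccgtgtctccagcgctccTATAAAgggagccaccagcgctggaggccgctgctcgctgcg
GDF15 (chr19:18386098-18386167, plus strand): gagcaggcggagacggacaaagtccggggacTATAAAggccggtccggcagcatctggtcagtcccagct
PGC (chr6:41747388-41747457, minus strand): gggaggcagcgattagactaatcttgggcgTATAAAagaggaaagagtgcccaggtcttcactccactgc
ELF3 (chr1:202010527-202010596, plus strand): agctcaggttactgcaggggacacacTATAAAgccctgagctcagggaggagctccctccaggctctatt
FOXA3 (chr19:45864266-45864335, plus strand): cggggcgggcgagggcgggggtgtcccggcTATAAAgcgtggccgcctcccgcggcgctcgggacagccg
CFB (chr6:31946035-31946104, plus strand): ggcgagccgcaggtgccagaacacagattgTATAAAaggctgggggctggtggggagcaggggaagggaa

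Whole windows are shown for 4 members, since the members ranged from CpG-poor to CpG-rich promoters. The receptor tyrosine kinase gene AXL and the bile acid carrier gene SLC10A1 had a CpG observed over expected ratio of 0.216 and 0.151. In the polo-like kinase gene PLK2 and the vesicular glutamate transporter gene SLC17A7 it was 1.09 and 0.636. This ratio compares the number of CG pairs with the number that the window's C and G content would give. Capitals mark matches on either strand to any of the 8 motifs searched, of which the windows of AXL, PLK2 and SLC17A7 held GGGCGG (the GC box) and that of SLC17A7 also CCAAT. The window of SLC10A1 held no match.
AXL (chr19:41218973-41219272, plus strand): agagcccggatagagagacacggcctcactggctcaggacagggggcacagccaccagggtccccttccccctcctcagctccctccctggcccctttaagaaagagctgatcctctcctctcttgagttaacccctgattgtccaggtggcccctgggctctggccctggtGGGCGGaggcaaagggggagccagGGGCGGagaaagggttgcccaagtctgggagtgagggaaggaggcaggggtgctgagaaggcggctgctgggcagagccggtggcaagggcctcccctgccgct
SLC10A1 (chr14:69797192-69797491, minus strand): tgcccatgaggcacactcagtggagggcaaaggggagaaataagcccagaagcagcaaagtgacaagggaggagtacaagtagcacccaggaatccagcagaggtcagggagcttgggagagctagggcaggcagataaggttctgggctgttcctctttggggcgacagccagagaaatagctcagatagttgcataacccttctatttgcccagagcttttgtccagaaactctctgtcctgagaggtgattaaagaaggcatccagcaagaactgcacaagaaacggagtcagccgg
PLK2 (chr5:58460037-58460336, minus strand): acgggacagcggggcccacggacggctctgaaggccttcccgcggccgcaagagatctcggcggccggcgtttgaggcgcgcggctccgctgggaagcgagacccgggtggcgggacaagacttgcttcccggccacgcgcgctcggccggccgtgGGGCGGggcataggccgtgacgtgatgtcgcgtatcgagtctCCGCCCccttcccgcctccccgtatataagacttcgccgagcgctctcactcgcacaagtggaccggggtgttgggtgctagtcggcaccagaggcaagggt
SLC17A7 (chr19:49441478-49441777, minus strand): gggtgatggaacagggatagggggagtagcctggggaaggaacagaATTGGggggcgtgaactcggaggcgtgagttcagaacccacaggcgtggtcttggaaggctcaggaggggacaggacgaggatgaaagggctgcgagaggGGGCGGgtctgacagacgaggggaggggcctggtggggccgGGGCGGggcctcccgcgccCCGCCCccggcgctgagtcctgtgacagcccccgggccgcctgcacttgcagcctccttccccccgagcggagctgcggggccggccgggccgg

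Over the 90 protein-coding members with a window, the median CpG observed over expected ratio was 0.505. It was 0.759 over 1292 protein-coding genes called higher that are no members and 0.841 over 9719 protein-coding genes tested. A ratio under 0.4 was found in 40.0% of the members' windows, 22.9% of those of the other genes called higher and 11.2% of those of the genes tested. The C and G content was close in the members, the other genes called higher and the genes tested, with medians of 64.8%, 65.0% and 65.3%. The medians of these groups thus lay apart for the CpG ratio and close together for the amount of C and G. Over all 27305 promoters of the table, which include genes silent in these cells, the median ratio was 0.580 and 41.0% lay under 0.4. Their median C and G content was lower, at 58.3%.

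**Figure D1:**
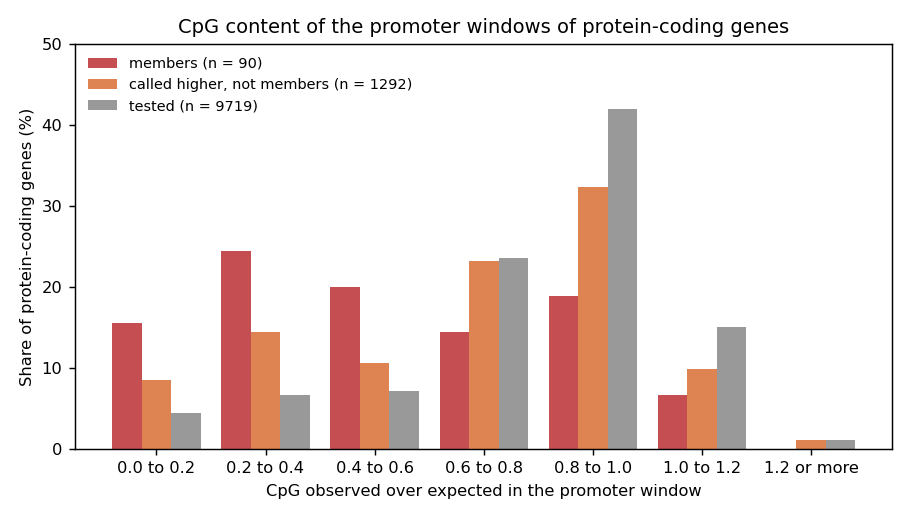
CpG observed over expected ratio (horizontal axis, in bins of 0.2, with the lower bound included) in the promoter windows of protein-coding genes, as the share of each group in percent (vertical axis). Of the 90 members (red), 15.6% lay under 0.2 and 24.4% from 0.2 to 0.4, whereas 42.0% of the 9719 genes tested (grey) lay from 0.8 to 1.0, beside 18.9% of the members and 32.3% of the 1292 other genes called higher (orange).

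TATAAA beginning 34 to 29 bases before the start was found in 8.89% of the protein-coding members' windows. The same was found in 3.72% of the windows of the other protein-coding genes called higher, in 1.48% of those of all protein-coding genes tested and in 1.99% of all promoters of the table. The distance was chosen after the members' positions were seen and favours the members, so nothing is read from these differences. GGGCGG was present in 57.8% of the members' windows, 67.6% of those of the other genes called higher, 70.4% of those tested and 44.6% of all promoters. CCAAT was present in 22.2%, 35%, 37% and 35.7% of the same groups. TGACTCA, the site of AP-1 factors, was present in 4.44%, 4.33%, 2.85% and 4.92%. TATAAA anywhere in the window was present in 10%, 8.13%, 5.45% and 12%. TGACGTCA was found in 2 and CACGTG in 5 of the 90 windows, and the NF-kappaB motif and the heat shock element in 0. All motifs were searched on both strands, none of the 8 contains another, and a match describes letters in the window and not a bound site. These shares are given without a test, and the RNA-SEQ counts do not show which start a gene used.

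The counts that chose the members are given as a description. In the DMSO-treated libraries the 261 members had 228, 221 and 254 counts in total, and their median count was 1 in each library. In the THZ1-treated libraries they had 21643, 20703 and 21289 counts, with median counts of 60, 60 and 57. This was 0.00206%, 0.00201% and 0.00228% of all counts with DMSO and 0.260%, 0.263% and 0.260% with THZ1. The members were therefore a small share of the RNA in either treatment, although each was seen in every THZ1-treated library. With DMSO, 43 members had no count in any library, 131 had 1 to 3 counts in total and 87 had 4 to 9. With THZ1, 43 members had at least 100 counts in each library.

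**Figure D2:**
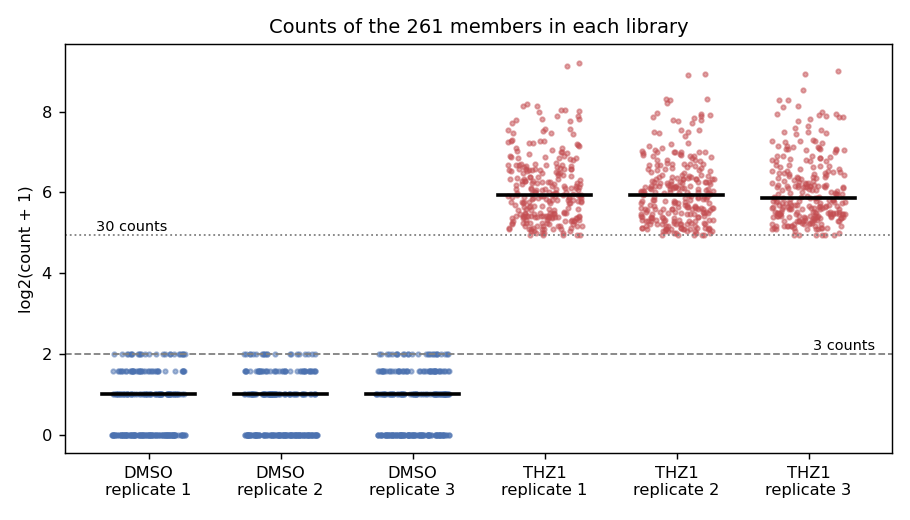
Counts of the 261 members in each of the 6 libraries on a log2(count + 1) scale (vertical axis), 1 point for each gene, with the median as a black bar and both limits of the rule as broken lines. The gap between 3 and 30 counts is set by the rule, and the medians are 1 count in each DMSO-treated library (blue) and 60, 60 and 57 counts in the THZ1-treated libraries (red).

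Neither limit fell in a gap of the counts. KLKP1 and SLC34A3 lay just inside the DMSO limit, with up to 3 counts in a DMSO-treated library. CTD-2105E13.13 (4, 3 and 3 counts with DMSO, 433, 460 and 466 with THZ1) and KLB (1, 4 and 2 counts with DMSO, 293, 267 and 244 with THZ1) lay just outside it. At the THZ1 limit, ENSG00000226989 (0 counts with DMSO, 30, 31 and 31 with THZ1) and RPL29P15 (0, 1 and 0 counts with DMSO, 30, 34 and 38 with THZ1) were inside. KRT17P1 (35, 29 and 34 counts with THZ1) and EPHA2 (42, 31 and 29) had no count with DMSO and were outside. The highest DMSO count was 3 in 61 of the genes that met the limits and 4 in 54 genes just beyond them, and the lowest THZ1 count was 30 in 16 and 29 in 9.

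The libraries held 11015480 to 11164840 counts on genes with DMSO and 7876402 to 8314306 with THZ1, so the members gained counts in the shallower libraries. A floor of 3 counts equals 0.249 CPM (counts relative to the library size, after TMM scaling) on average in the DMSO-treated libraries. The floor and the intervals given below cover counting error only. B cell precursor markers were present in both treatments: 12 of 12 passed the filter on low counts, and their summed level was 4133 to 4269 CPM with DMSO and 2192 to 2257 CPM with THZ1. All 261 members passed the filter and were called higher by edgeR's quasi-likelihood test, with thresholds of 0.05 on the Benjamini-Hochberg adjusted p-value and 1.5 on the log2 fold change. The background was 24.6% of the 16622 genes tested, and nothing is read from the members' count, since the rule used the same contrast. Their median fitted log2 fold change was 6.99 (range 4.42 to 12.44), or 6.42 with the 43 members without DMSO counts set at their bound, beside 0.03 over all genes tested. In these bulk libraries, a rise in a few cells and a rise in all cells cannot be told apart, nor can fewer cells of a type and less RNA per cell.

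The spread between the THZ1-treated libraries is a description, since the rule asks for at least 30 counts in each. It was not compared with that of other genes. The coefficient of variation of the 3 THZ1-treated libraries had a median of 12.7% over the members and reached 47.2%. The highest THZ1-treated library was under 1.5 times the lowest for 225 members and 1.5 times or more for 36. Mean levels with THZ1 ran from 4.13 to 71.1 CPM with a median of 8.05 CPM, and 90 members reached 10 CPM. The highest level of any member in a DMSO-treated library was 0.253 CPM.

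By annotated type, 122 of the 261 members were protein-coding (46.7%), 79 were long noncoding RNAs (30.3%), 50 were pseudogenes (19.2%), 8 were microRNA genes and 2 were other small RNAs. Of the 3827 genes called higher that are no members, 3627 have an entry in the annotation, and among these 47.1% were protein-coding, 36.5% long noncoding RNAs and 11.2% pseudogenes. Among 16092 genes tested with an entry in the annotation, the shares were 74.1%, 18.6% and 5.44%. Over all 55538 genes of the count table with an entry, tested or not, they were 34.9%, 23.3% and 25.6%. The members' protein-coding share thus lay below that of the genes tested and above that of all genes. Their pseudogene share lay above the first and below the second. Genes named as antisense (13) or divergent (17) and small RNA genes were left out of the members by rule and not from the other groups. This lowers the members' noncoding share and raises their protein-coding share, so nothing is read from their lower share of long noncoding RNAs beside the other genes called higher. The protein-coding members were short, with a median span of 10.7 kb and 7 exons, beside 12.5 kb and 7 exons for the other genes called higher and 30.7 kb and 11 exons for all tested. Their exonic length had a median of 3.20 kb, beside 3.81 kb and 5.28 kb. The 78 long noncoding members of the main lncRNA class spanned a median of 1.57 kb, beside 2.99 kb and 3.95 kb, and 34.6% of them had a single exon, beside 29.2% and 21.9%. Chromosome 19 held 37 members (14.2%), beside 11.6% of the other genes called higher and 8.25% of those tested.

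Among receptors, AXL, which binds GAS6, had 1, 3 and 0 counts in the 3 DMSO-treated libraries and 282, 294 and 283 in the THZ1-treated libraries. The 3 THZ1-treated values lay within a narrow range, at 38.5 ± 1.91 CPM (SD, n = 3), and the ratio to DMSO was 348-fold (95% counting interval 135 to 1280). AXL lies on chromosome 19 from 41725128 to 41767671 (GRCh37, as all positions of genes here), with no neighbouring gene of at least 30 counts in each THZ1-treated library that overlaps it or ends within 10 kb before it. The orphan receptor gene GPR61 had 2, 3 and 3 counts with DMSO and 146, 129 and 172 with THZ1, a ratio of 90.5-fold (95% counting interval 45.5 to 211). GALR2, a receptor for the neuropeptide galanin, had 1, 0 and 1 counts with DMSO and 101, 80 and 110 with THZ1, and RXFP4, a receptor of the relaxin family, had 0, 2 and 0 counts with DMSO and 69, 68 and 66 with THZ1. Both stayed at or under 2 counts in each DMSO-treated library. GPR173, GRM2 and GPR84 completed the 6 members among 709 G protein-coupled receptor genes, of which 95 were tested and 33 were called higher and 21 lower. The members were 0.846% of this list, beside 0.630% of all protein-coding genes of the table. Of its genes tested, 34.7% were called higher, beside 15.4% of all protein-coding genes tested, while 12.9% of all genes tested were called lower. CSF1R, the receptor of the macrophage growth factor CSF1, had 2, 1 and 1 counts with DMSO and 60, 39 and 37 with THZ1, and TNFRSF4, the T cell costimulator OX40, had 2, 0 and 0 counts with DMSO and 34, 42 and 43 with THZ1. Their ratios were 55.1-fold (95% counting interval 21 to 205) and 96.4-fold (95% counting interval 26.1 to 805). CDH23, a cadherin of the hair cells of the ear, had 2, 3 and 3 counts with DMSO and 78, 63 and 69 with THZ1, a ratio of 42.5-fold (95% counting interval 21.2 to 99.8).

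Channels and carriers of many tissues came next. TRPM5, the calcium-activated cation channel of taste cells, had 0 counts in all 3 DMSO-treated libraries and 256, 311 and 309 in the THZ1-treated libraries. No DMSO-treated library held a read of it, and its level of 39.3 ± 4.99 CPM was at least 158-fold higher than the floor. SLC34A3, the kidney sodium-phosphate cotransporter, had 2, 0 and 3 counts with DMSO and 289, 315 and 276 with THZ1, a ratio of 285-fold (95% counting interval 122 to 880.4). SLC10A1, which takes up bile acids in the liver, had 1, 3 and 0 counts with DMSO and 173, 167 and 186 with THZ1, a ratio of 213-fold (95% counting interval 82.7 to 785). SLC39A4, the intestinal zinc importer, had 1, 2 and 2 counts with DMSO and 150, 126 and 135 with THZ1. BEST2, a bestrophin anion channel, had 3, 0 and 2 counts with DMSO and 88, 75 and 113 with THZ1, CLIC3, an intracellular chloride channel protein, had 1, 1 and 0 counts with DMSO and 101, 116 and 116 with THZ1, and KCNH6, a voltage-gated potassium channel, had 0, 1 and 0 counts with DMSO and 40, 49 and 34 with THZ1. Solute carriers gave 7 members of 382 genes, the others being SLC11A1, SLC17A7, SLC32A1 and SLC16A3, and ion channels gave 4 of 294, the other being KCNK4. These were 1.83% and 1.36% of the lists, beside 0.630% of all protein-coding genes of the table. Both families held genes called in either direction: 41 of 221 tested solute carriers were called higher and 37 lower, with a median log2 fold change of −0.21, and 39 of 105 tested ion channels were called higher and 16 lower, with a median of 0.91. The shares called higher were 18.55% and 37.1%, beside 15.4% of all protein-coding genes tested. Over all genes tested, 12.9% were called lower.

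Among the family lists, synaptic genes had the highest share of members after the p53 targets, at 7 of 192 listed genes (3.65%), beside 0.630% of all protein-coding genes of the table. SLC17A7, which loads glutamate into synaptic vesicles, had 3, 0 and 0 counts in the 3 DMSO-treated libraries and 117, 93 and 114 in the THZ1-treated libraries, a ratio of 175-fold (95% counting interval 59.4 to 853). SLC32A1, which loads the inhibitory transmitters GABA and glycine, had 3, 1 and 1 counts with DMSO and 77, 93 and 92 with THZ1, a ratio of 84.9-fold (95% counting interval 35.9 to 264). Transporters of excitatory and of inhibitory vesicles thus appeared in the same libraries. CAMK2B, a calcium/calmodulin-dependent kinase, had 1, 3 and 0 counts with DMSO and 101, 83 and 101 with THZ1, and SYN1, synapsin of the vesicle surface, had 1, 1 and 1 counts with DMSO and 91, 85 and 75 with THZ1. SYNGR3, ACHE and SEMA3G were the other members of the list, of which 28 of 76 genes tested were called higher and 5 lower. The share called higher was 36.8%, beside 15.4% of all protein-coding genes tested, while 12.9% of all genes tested were called lower. Neuron markers were detected with THZ1 for 6 of 11 genes, with ELAVL4, NEFM, SNAP25 and STMN2 at 0 counts in all 6 libraries and SYT1 at 0 with THZ1. The list holds the member SLC17A7. Its summed level was 8.68 to 10.4 CPM with DMSO and 25.8 to 30.4 CPM with THZ1, and without SLC17A7 it was 8.43 to 10.4 CPM and 11.4 to 15.1 CPM.

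Secreted proteins of several organs were found. GH1, the pituitary growth hormone, had 1, 1 and 2 counts in the 3 DMSO-treated libraries and 261, 222 and 234 in the THZ1-treated libraries, which is 32.1 ± 1.93 CPM with THZ1 and a ratio of 290.4-fold (95% counting interval 113 to 1069). GH1 lies on chromosome 17 from 61994560 to 61996199, within a family of near-identical copies, so reads could be split between copies. All THZ1-treated values of GH1 lay above 200 counts. THPO, the growth factor of megakaryocytes, had 0 counts in all DMSO-treated libraries and 43, 33 and 40 with THZ1, and CFB, complement factor B, had 0 counts in all DMSO-treated libraries and 41, 36 and 38 with THZ1. ADAMTS4, a protease that cuts aggrecan, had 0, 2 and 0 counts with DMSO and 60, 68 and 38 with THZ1. For ADAMTS4 the THZ1-treated libraries differed by more than for most members, with 7.46 ± 2.20 CPM. PRSS33 and PRSS8 are serine proteases that matched the list of cancer-testis and germ cell genes by their symbols, and no other gene of that list was a member. PRSS33 had 0 counts in all DMSO-treated libraries and 154, 104 and 133 with THZ1, at least 70.2-fold higher than the floor, and PRSS8 had 0 counts in all DMSO-treated libraries and 33, 40 and 43 with THZ1.

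The p53 target list held 3 members of 41 genes (7.32%), PLK2 and GDF15 among them, and 22 of its 35 tested genes were called higher and 0 lower, with a median log2 fold change of 2.0. PLK2, a polo-like kinase, had 0 counts in all 3 DMSO-treated libraries and 128, 132 and 154 in the THZ1-treated libraries, at least 74.5-fold higher than the floor. GDF15, a cytokine of cell stress, had 0, 0 and 2 counts with DMSO and 53, 39 and 41 with THZ1, a ratio of 108-fold (95% counting interval 29.2 to 899). PLK2 had no DMSO count at all, whereas GDF15 had 2 in a single library. The backgrounds by edgeR were 24.6% called higher and 12.9% called lower. DESeq2 called 22 of the 35 higher and 0 lower too, and at an unadjusted p-value below 0.05 at any fold 29 were higher and 2 lower, MDM2 and POLK.

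NAT16, an N-acetyltransferase gene, had the most counts of any protein-coding member, with 1, 2 and 2 counts in the 3 DMSO-treated libraries and 563, 480 and 486 in the THZ1-treated libraries and 68.5 ± 4.86 CPM. Its ratio was 496-fold (95% counting interval 212 to 1528). Per kb of exon, however, it reached 17.6 CPM per kb and lay below MCCD1 (32.9 CPM per kb), RNF151 (32.6 CPM per kb), GH1 (26.8 CPM per kb) and COX7A1 (23.6 CPM per kb), and close to SLC34A3 (17.1 CPM per kb) and LY6G6C (16.7 CPM per kb). These per-length levels are means over 3 libraries, and the rank of neighbours was not tested. COX7A1, the muscle isoform of a cytochrome c oxidase subunit, had 2, 1 and 1 counts with DMSO and 114, 105 and 89 with THZ1, a ratio of 125-fold (95% counting interval 48.2 to 461). FKBP10, a chaperone of collagen folding, had 0 counts in all DMSO-treated libraries and 61, 74 and 44 with THZ1. HSPB6, a small heat shock protein of muscle, had 2, 2 and 1 counts with DMSO and 218, 179 and 198 with THZ1, a ratio of 193-fold (95% counting interval 82.2 to 596). It was the single member among 50 heat shock and chaperone genes, of which 7 of 40 tested were called higher and 4 lower. The share called higher was 17.5%, near the 15.4% of all protein-coding genes tested, while 12.9% of all genes tested were called lower.

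Structural genes of muscle and cilia were each represented by few members. TNNC2, the fast skeletal troponin C, had 0, 1 and 3 counts with DMSO and 81, 76 and 85 with THZ1, a ratio of 98-fold (95% counting interval 37.8 to 363). CFAP74, a protein of the ciliary axoneme, had 0 counts in all DMSO-treated libraries and 68, 90 and 72 with THZ1, and ODF3, an outer dense fibre protein of the sperm tail, had 1, 0 and 2 counts with DMSO and 68, 83 and 79 with THZ1. CFAP74 spans 10422 bases of exon, so its 10.3 ± 1.86 CPM is a low level per length, 0.992 CPM per kb, beside 12.8 CPM per kb for TNNC2. S100A14, an epithelial S100 protein, had 3, 1 and 1 counts with DMSO and 99, 97 and 85 with THZ1.

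Transcription factors of development made up a small group, with MAFA and ZNF564 taken from other lists. DLX2, a homeobox factor of the forebrain and face, had 0, 0 and 1 counts in the 3 DMSO-treated libraries and 77, 84 and 70 in the THZ1-treated libraries, a ratio of 374-fold (95% counting interval 66.5 to 14850). RAX2, a homeobox factor of the retina, had 0, 0 and 1 counts with DMSO and 52, 54 and 43 with THZ1, and FOXA3, a forkhead factor of the liver, had 0, 0 and 1 counts with DMSO and 42, 47 and 35 with THZ1. Each had a single DMSO count. TLX2 was the other of the 4 members among 323 homeobox and developmental factors, of which 78 were tested and 33 called higher and 8 lower. The share called higher was 42.3%, beside 15.4% of all protein-coding genes tested, while 12.9% of all genes tested were called lower. MAFA, the insulin gene activator of pancreatic beta cells, had 1, 2 and 1 counts with DMSO and 93, 74 and 90 with THZ1. Among 31 immediate early and stress factors it was the single member, and 22 of the 27 tested were called higher (81.5%) and 1 lower. ZNF564 was the single member among 500 zinc finger genes and had 3, 1 and 2 counts with DMSO and 58, 35 and 51 with THZ1.

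**Figure D3:**
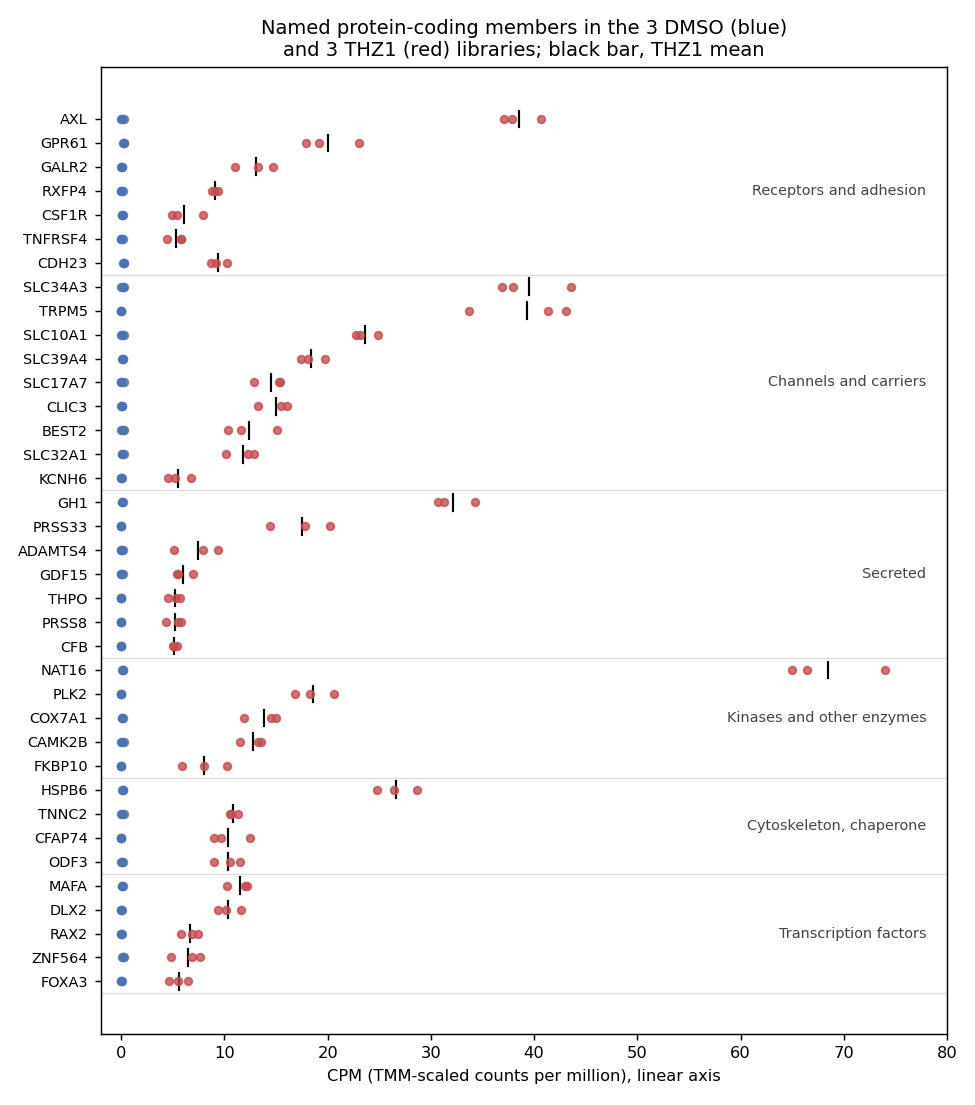
Level of named protein-coding members in CPM (horizontal axis, linear) in the 3 DMSO-treated (blue) and 3 THZ1-treated (red) libraries, with the THZ1 mean as a black bar and genes grouped by role. Every DMSO point lies at or under 0.253 CPM by the rule, the THZ1 means run from 5.15 CPM for CFB to 68.5 CPM for NAT16, and values are to be compared within a gene since CPM is not per length.

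Of the 122 protein-coding members, 44 fell in at least 1 of the 24 family lists. By the symbols of these lists, GDF15 and THPO are counted as a growth factor and a hormone. No member was found among the listed cytokines and chemokines (126 genes, 13 of 23 tested called higher), keratins (147 genes, 1 of 1), cytochrome P450 and UGT enzymes (75 genes, 4 of 12), integrins and CD antigens (128 genes, 17 of 73) or myosins and tubulins (110 genes, 18 of 83). Growth factors gave 1 member of 121 genes (0.826%), peptide hormones 2 of 84 (2.38%), matrix genes 1 of 140 (0.714%) and sarcomere genes 1 of 66 (1.52%). Members were 0.630% of all protein-coding genes of the table. At that share a list of this size holds few or no members, so nothing is read from the lists without a member. Over all protein-coding genes tested, 15.4% were called higher. The members thus came in small numbers from many families.

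Markers of other cell types were read beside these genes. Sums that leave out a member were added after the data were seen. All 12 hepatocyte markers, among them the member SLC10A1, had counts in at least 1 library of either treatment. Their sum was 7.38 to 23.9 CPM with DMSO and 35.2 to 36.5 CPM with THZ1, and without SLC10A1 it was 7.13 to 23.9 CPM and 11.6 to 12.6 CPM, so that the groups overlapped. Epithelial markers summed to 0.744 to 1.64 CPM with DMSO and 18.7 to 19.8 CPM with THZ1, with 6 of 12 genes detected with THZ1 and ESRP1, GRHL2, KRT5, KRT14 and KRT18 at 0 counts in all libraries. The 0 of KRT18 is uncertain, since it has many near-identical pseudogenes that can share its reads. Megakaryocyte markers summed to 3.71 to 4.47 CPM with DMSO and 69.9 to 73.6 CPM with THZ1, with 5 of 8 detected and PF4, PPBP and GP1BB at 0 counts. Myeloid markers, which include the member CSF1R, summed to 70.4 to 76.7 CPM with DMSO and 92.9 to 99.7 CPM with THZ1 (70.3 to 76.6 CPM and 85.7 to 94.8 CPM without CSF1R), with 11 of 15 detected and S100A8, S100A9 and FCN1 at 0 counts. Striated muscle markers were lower in sum, with 153.9 to 180.3 CPM with DMSO and 54.0 to 60.9 CPM with THZ1, with ACTN2, MYH1 and TNNT3 at 0 counts. T cell markers went from 127.1 to 136.7 CPM with DMSO to 50.2 to 56.6 CPM with THZ1, with 9 of 13 detected and CD8A, CD8B and TRBC2 at 0 counts. Fibroblast markers were at 134.5 to 151.3 CPM and then 42.2 to 44.3 CPM (7 of 10 detected), and endothelial markers at 126.6 to 138.1 CPM and then 30.1 to 38.1 CPM (7 of 9). Erythroid markers were higher in sum, at 1.56 to 3.22 CPM and then 20.9 to 26.2 CPM (8 of 12 detected). NK cell markers were at 8.27 to 9.51 CPM and then 10.6 to 16.1 CPM (5 of 10). Detected means any count with THZ1, and a sum can rest on few genes. The filter on low counts was passed by 1 of 12 epithelial, 3 of 8 megakaryocyte, 3 of 12 erythroid and 3 of 12 hepatocyte markers. It was passed by 2 of 13 T cell, 3 of 10 fibroblast, 3 of 9 endothelial and 2 of 12 striated muscle markers, 8 of 15 myeloid and 1 of 10 NK cell markers. Some markers in each of these lists except the hepatocyte list were at 0 counts in all 6 libraries, and the part of other cells in the members' counts was not tested.

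Noncoding members followed. TERC, the RNA component of telomerase, had 2, 1 and 1 counts in the 3 DMSO-treated libraries and 185, 185 and 192 in the THZ1-treated libraries, a ratio of 228-fold (95% counting interval 88.4 to 838). The library labels do not name a selection for polyadenylated RNA, and TERC is known as an RNA without a poly(A) tail. ACTRT3, a neighbour of TERC on the same strand, was a member too, with 0, 0 and 2 counts with DMSO and 95, 98 and 84 with THZ1. UCA1, a long noncoding RNA first described in bladder cancer, had 1, 0 and 0 counts with DMSO and 111, 110 and 91 with THZ1, a ratio of 506-fold (95% counting interval 90.1 to 20030), and overlaps the member LINC01764 on the opposite strand. Of the long noncoding genes without a symbol, ENSG00000254739 (chromosome 11 from 528907 to 529659) had 0, 1 and 1 counts with DMSO and 263, 220 and 237 with THZ1, and ENSG00000260369 (chromosome 17 from 78427535 to 78428529) had 0, 1 and 1 counts with DMSO and 237, 228 and 233 with THZ1.

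Of the 8 microRNA genes, MIR3191 had the most counts, with 1, 0 and 0 counts with DMSO and 130, 101 and 119 with THZ1, followed by MIR4736 with 0, 1 and 0 counts with DMSO and 74, 63 and 66 with THZ1 and MIR3680-1 with 1, 1 and 0 counts with DMSO and 77, 64 and 52 with THZ1. These counts are reads over the hairpin and do not measure the mature microRNA. MIR3191 lies whole within an exon of BBC3, the proapoptotic p53 target PUMA, on the opposite strand, and BBC3 had 4.04 ± 0.335 CPM in DMSO-treated and 139.6 ± 2.98 CPM in THZ1-treated libraries (edgeR with Benjamini-Hochberg adjustment, log2 fold change 5.11, standard error 0.11, adjusted p = 1.24e-27). The strand setting of the counting is not given in the sources used here, so reads of BBC3 and of MIR3191 cannot be told apart. The mature sequences of these 3 genes share no seed, and each is given from RefSeq 5′ to 3′ with its seed (bases 2 to 8) in capitals.
hsa-miR-3191-5p: cUCUCUGGccgucuaccuucca
hsa-miR-3191-3p: uGGGGACGuagcuggccagacag
hsa-miR-4736: aGGCAGGUuaucugggcug
hsa-miR-3680-5p: gACUCACUcacaggauugugca
hsa-miR-3680-3p: uUUUGCAUgacccugggaguagg

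Pseudogenes held the member with the most counts of all. PLEKHA3P1, a processed copy of PLEKHA3 on chromosome 19 from 42027403 to 42028349, had 0 counts in all 3 DMSO-treated libraries and 593, 484 and 510 in the THZ1-treated libraries, at least 285-fold higher than the floor. Its parent PLEKHA3 was lower with THZ1, with 19.7 CPM in DMSO-treated and 10.7 CPM in THZ1-treated libraries (edgeR with Benjamini-Hochberg adjustment, log2 fold change −0.89, adjusted p = 7.05e-07). The copy and its parent therefore moved in opposite directions. SAP30P1 had 0, 0 and 3 counts with DMSO and 252, 241 and 243 with THZ1, while its parent SAP30 had 17.3 and 8.65 CPM (log2 fold change −0.99, adjusted p = 1.27e-06, same test). For 27 of the 50 pseudogenes a parent could be named from the symbol, and 25 parents were tested. By edgeR, 0 of the 25 were called higher, beside 24.6% of all genes tested and 15.4% of the protein-coding genes tested. Called lower were 2, beside 12.9% of all genes tested, and DESeq2 gave the same counts for the parents. At any fold, 7 were higher and 14 lower, also at an unadjusted p-value below 0.05. The other parents, KRT18 and PPP1R26, were at 0 counts in all 6 libraries, whereas KRT18P31 had 1, 1 and 1 counts with DMSO and 98, 119 and 150 with THZ1 and PPP1R26P1 had 0, 3 and 2 counts with DMSO and 282, 245 and 310 with THZ1. Processed copies are nearly identical to their parents, so the assignment of reads between them is uncertain. KLKP1, a kallikrein pseudogene, had 3, 0 and 0 counts with DMSO and 225, 318 and 373 with THZ1, with THZ1-treated values further apart than for most members (41.2 ± 10.4 CPM), and KLK4, which lies near it on chromosome 19, was a member with 0 counts in all DMSO-treated libraries and 89, 54 and 78 with THZ1.

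The positions of the members were then compared with those of other genes, counting as neighbours only genes with at least 30 counts in each THZ1-treated library. Such a neighbour was found for 158 of 261 members (60.5%), beside 72.4% of the other genes called higher and 60.7% of the genes tested. Members lay within or across the span of a gene on the opposite strand, with no exon overlap, in 18.4%, beside 11.2% of the other genes called higher and 6.12% of those tested. They lay inside the span of a gene on the same strand in 6.51%, beside 5.43% and 1.86%. Within 10 kb downstream of a gene on the same strand were 14.9%, beside 13.7% and 9.97%. Exon overlap on the opposite strand was found in 16.9%, beside 30% and 32%, and a head to head start within 1 kb in 1.92%, beside 7.89% and 6.74%. Genes named as antisense or divergent were left out of the members by rule and not from the other groups, which lowers both shares among the members. The remaining 103 members (39.5%) had no such neighbour, among them PLEKHA3P1, NAT16, AXL, SLC10A1 and PLK2.

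**Figure D4:**
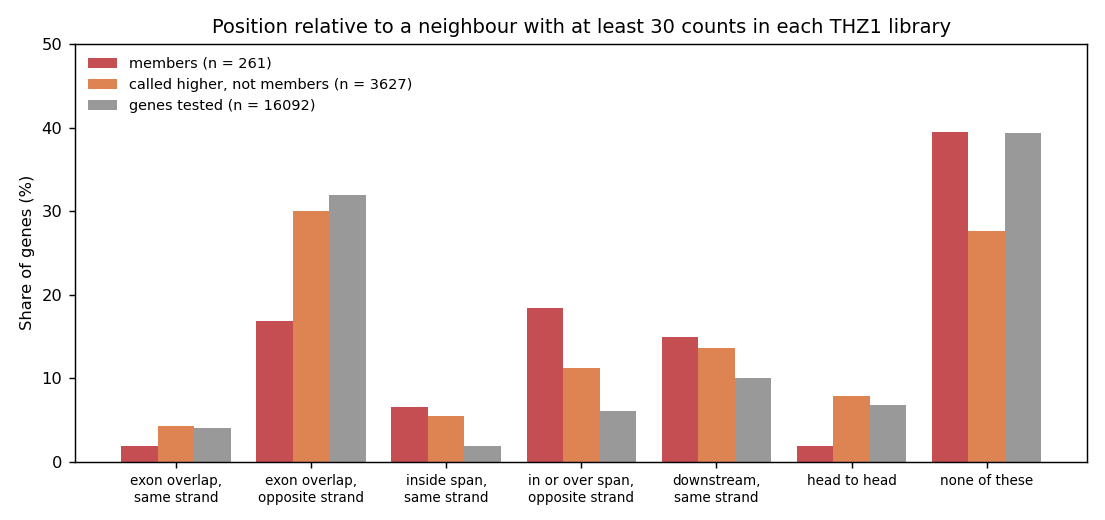
Share of genes in percent (vertical axis) in each position class relative to a neighbour with at least 30 counts in each THZ1-treated library, for the 261 members (red), 3627 other genes called higher (orange) and 16092 genes tested with an annotation entry (grey). Members lay in or over a gene span on the opposite strand in 18.4% and overlapped an exon on the opposite strand in 16.9%, beside 6.12% and 32% of the genes tested.

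The neighbours that are no members had also been kept for their counts with THZ1, and this limit favours genes that are high after treatment. Of 140 such neighbours, counted once for each member, 31 were called higher (22.1%) and 4 lower. Among all 12078 genes tested that are no members and pass the same limit, 18.9% were called higher and 9.11% lower, with a median log2 fold change of −0.03. This background was added after the neighbours' values were known. Genes that lie upstream on the same strand were called higher in 15 of 36 cases (41.7%) and lower in 1, with a median log2 fold change of 0.83. Hosts on the same strand were called higher in 2 of 17 cases and hosts on the opposite strand in 3 of 47, with medians of −0.02 and −0.20. Neighbours whose exons overlap a member's on the opposite strand were called higher in 10 of 30 cases (33.3%) and lower in 0, with a median of 0.47. Exon overlap on the same strand gave 0 of 5 called higher, and a head to head start 1 of 5. Of the 47 members in or over a gene on the opposite strand, 46 had fewer CPM than that gene. The differences between these classes were not tested.

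**Figure D5:**
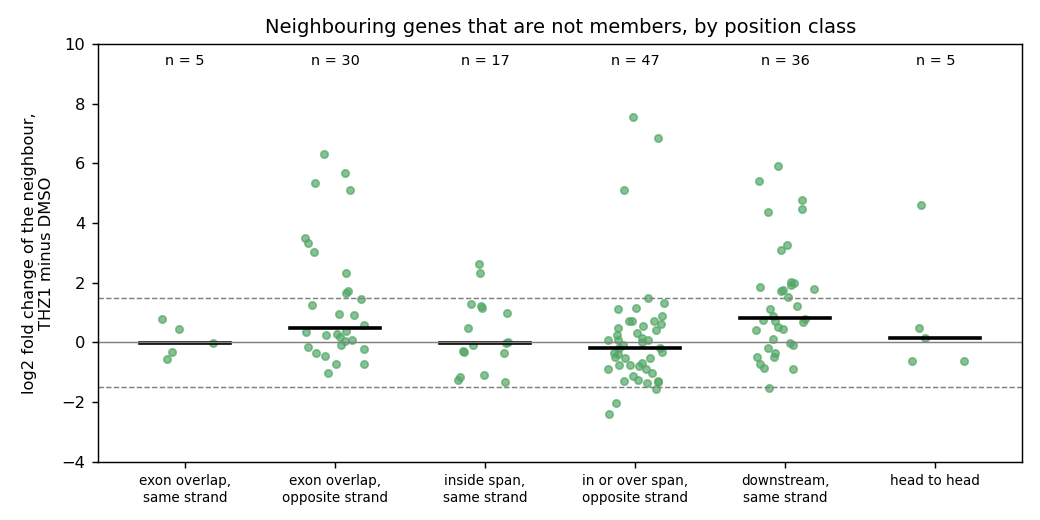
Log2 fold change of the neighbouring gene, THZ1 minus DMSO (vertical axis), for neighbours that are no members, by position class (horizontal axis), with 1 point for each member's neighbour, the median as a black bar and the thresholds of 1.5 and −1.5 as broken lines. The median was 0.83 over 36 upstream genes and −0.20 over 47 genes on the opposite strand.

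Several members lay in rows of genes on the same strand. SLC34A3 starts 1117 bases after the end of RNF224, a RING finger gene that is itself a member with 0, 1 and 1 counts with DMSO and 184, 187 and 181 with THZ1. RNF224 starts 1187 bases after the end of CYSRT1, which rose, with 1.02 ± 0.107 CPM in DMSO-treated and 22.8 ± 2.20 CPM in THZ1-treated libraries (log2 fold change 4.46, standard error 0.21, adjusted p = 5.24e-19, edgeR with Benjamini-Hochberg adjustment). In this row on chromosome 9, RNF224 and SLC34A3 are higher by the rule, and only CYSRT1 was not chosen as a member. RNF151, a RING finger gene of the testis, had 1, 1 and 3 counts with DMSO and 221, 236 and 253 with THZ1 and starts 1314 bases after SNHG9, a small nucleolar RNA host gene with 0.747 ± 0.141 CPM in DMSO-treated and 32.4 ± 2.30 CPM in THZ1-treated libraries (edgeR, log2 fold change 5.41, standard error 0.20, adjusted p = 1.53e-21). GH1 starts 9899 bases after CD79B, part of the B cell receptor, which was lower with THZ1, with 269.8 ± 39.3 CPM in DMSO-treated and 161 ± 1.56 CPM in THZ1-treated libraries (edgeR, log2 fold change −0.74, standard error 0.08, adjusted p = 5.66e-10). SLC17A7 starts 3938 bases after PIH1D1, which had 85.3 ± 7.45 CPM in DMSO-treated and 199 ± 11 CPM in THZ1-treated libraries (edgeR, log2 fold change 1.22, standard error 0.08, adjusted p = 1.22e-15). Upstream genes thus rose beside RNF151 and SLC17A7 and fell beside GH1. BEST2 lies downstream of GET3, which did not pass the test, with 60 ± 8.91 CPM in DMSO-treated and 56.8 ± 2.94 CPM in THZ1-treated libraries (edgeR, log2 fold change −0.08, standard error 0.09, adjusted p = 0.429).

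Members inside other genes showed the same variety. PPP1R26P1 lies on the opposite strand within RB1, the retinoblastoma tumor suppressor gene, which had 176 ± 21.1 CPM in DMSO-treated and 43 ± 5.37 CPM in THZ1-treated libraries (edgeR with Benjamini-Hochberg adjustment, log2 fold change −2.04, standard error 0.09, adjusted p = 4.45e-19). SAP30P1 lies likewise within SELENOT, a selenoprotein gene, with 106 ± 2.79 CPM in DMSO-treated and 48.9 ± 4.64 CPM in THZ1-treated libraries (edgeR, log2 fold change −1.11, standard error 0.08, adjusted p = 1.21e-13). Both hosts fell while the pseudogene within them went from at most 3 to over 200 counts. KRT18P31 lies on the same strand within NIPBL, the cohesin loader, which rose, with 61.5 ± 4.89 CPM in DMSO-treated and 136 ± 12.4 CPM in THZ1-treated libraries (edgeR, log2 fold change 1.15, standard error 0.08, adjusted p = 3.52e-14). ENSG00000266498, a single-exon noncoding gene within the folliculin gene FLCN on the same strand, had 1, 0 and 0 counts with DMSO and 137, 120 and 148 with THZ1, and FLCN had 29.9 ± 1.05 CPM in DMSO-treated and 149 ± 19.5 CPM in THZ1-treated libraries (edgeR, log2 fold change 2.32, standard error 0.09, adjusted p = 8.83e-21). ENSG00000226989, at the THZ1 limit, lies within PACSIN2, which did not pass the test, with 112 ± 0.367 CPM in DMSO-treated and 107 ± 3.09 CPM in THZ1-treated libraries (edgeR, log2 fold change −0.07, standard error 0.07, adjusted p = 0.350). FOXA3 starts head to head with SYMPK, 795 bases away, which was lower, with 170.2 ± 8.77 CPM in DMSO-treated and 109.6 ± 2.21 CPM in THZ1-treated libraries (edgeR, log2 fold change −0.64, standard error 0.07, adjusted p = 1.26e-09).

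Some members share exonic bases with a gene that has reads of its own. MCCD1 shares 14 bases with the helicase gene DDX39B on the opposite strand, which had 176 ± 12.2 CPM in DMSO-treated and 575 ± 9.82 CPM in THZ1-treated libraries (edgeR with Benjamini-Hochberg adjustment, log2 fold change 1.71, standard error 0.07, adjusted p = 2.22e-20), and MCCD1 itself had 0, 0 and 2 counts with DMSO and 190, 177 and 154 with THZ1. LY6G6C, with 0, 3 and 0 counts with DMSO and 124, 120 and 131 with THZ1, shares 36 bases with MPIG6B, a platelet receptor gene, which rose, with 0.664 ± 0.0857 CPM in DMSO-treated and 53.5 ± 6.45 CPM in THZ1-treated libraries (edgeR, log2 fold change 6.30, standard error 0.18, adjusted p = 4.75e-24). CFB shares 24 bases with the complement gene C2 on the same strand (8.52 ± 0.579 CPM in DMSO-treated and 14.7 ± 2.40 CPM in THZ1-treated libraries). CAMK2B shares 2325 bases with YKT6, a vesicle fusion protein gene on the opposite strand, which had 113 ± 3.89 CPM in DMSO-treated and 312 ± 16.6 CPM in THZ1-treated libraries (edgeR, log2 fold change 1.47, standard error 0.07, adjusted p = 1.17e-18). Without the strand setting, the reads in such shared stretches cannot be told apart.

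Members also lay next to each other. Within 20 kb of another member were 37 members, in 18 groups. One group on chromosome 19 held KASH5, a meiotic protein of the nuclear envelope (0, 0 and 1 counts with DMSO and 43, 32 and 36 with THZ1), GFY, an olfactory protein (0 counts in all DMSO-treated libraries and 55, 38 and 61 with THZ1), and SLC17A7, which lies on the other strand. Other groups were TRPM5 with ENSG00000230483, HSPB6 with ENSG00000267328, TERC with ACTRT3, KLKP1 with KLK4, and AIFM3 with ENSG00000272829. In the pairs of TRPM5 and HSPB6 the 2 genes overlap on opposite strands, by 404 and 660 bases of exon, so the same reads may have counted for either.

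The second deposited table holds log2 values of an expression level from the same libraries for 16730 genes, 248 of them members. Here 245 of the 248 members had every THZ1-treated value above every DMSO-treated value, beside 36.9% of all genes of that table, and 0 had a lower mean with THZ1. Nothing is read from this count, since the members were chosen on the same reads. The median difference was 3.19 (range 0.10 to 7.72), beside −0.15 over all genes of that table. In this table, 28 members had a mean of at least 1 on the log2 scale with DMSO, although they had at most 3 counts in each of these libraries. The values come from the same reads and are a second way of counting them, not a second measurement.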

How the data were processed

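Gene counts were analysed for 3 DMSO-treated and 3 THZ1-treated libraries of NALM6 cells. The deposited raw counts per gene, which the authors obtained with HTSeq from reads mapped to GRCh37 by STAR after filtering, were used without change. The annotation and the strand setting are not given in the sources used here. A second deposited table holds log2 values of an FPKM level from RSEM, read as log2(FPKM + 1). The sorted values of libraries of one treatment are nearly identical in it, a step that no source used here names. Its columns with the authors' p-values, FDR and log2 fold changes were not used.

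The members and the gene lists were chosen with earlier results of these data known. Genes were annotated with GENCODE 44 mapped to GRCh37, which held 55538 of the 57905 genes. All genes were filtered with edgeR's filterByExpr (at least 10 counts in a library and 15 in total), scaled by TMM, an assumption that the level of most genes is kept, and tested in the same fit with the quasi-likelihood test and Benjamini-Hochberg adjustment. The thresholds of a call were 0.05 on the adjusted p-value and 1.5 on the size of the log2 fold change. For members without DMSO counts the fold was computed against a floor of 3 counts per library, and for others a ratio of scaled counts is given with its exact 95% interval. Tests are two-sided.

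Genes were named by a rule: the 12 members with the highest mean CPM, the 10 protein-coding members with the highest mean CPM per kb of exon, up to 3 in each list, those nearest to the limits, and up to 2 in each position class with the neighbour. SYN1, TERC, ACTRT3, UCA1, KLK4, KASH5, GFY, KRT18P31, the microRNA genes, AQP3, PGC and ELF3 lie outside this rule and were named with their values known, as were other members and parents named only to complete a count, and the pairs within 20 kb. A result of 1 gene that the rule names is not reported here. Same-numbered libraries of the treatments did not deviate together, with correlations of −0.004, 0.001 and 0.021.

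The alternatives were other factors, DESeq2, a replicate block, no filter, omission of each library, other limits of the rule, other distances and other pseudocounts. On simulated counts drawn from the real genes, 199 of 200 changed genes and 12 of 15871 unchanged genes passed on the adjusted p-value alone. The simulation was not made for genes nearly silent with DMSO, so nothing about the members' calls is read from it. R 4.3.3, edgeR 4.0.16, limma 3.58.1, DESeq2 1.42.0, Python 3.11.15, scipy 1.17.1 and pandas 2.3.3 were used.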

Additional observations from a re-analysis of the deposited data

How the results depend on the processing

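The number of genes that meet the rule depended on its limits. It was 43, 119 and 553 with at most 0, 1 or 10 DMSO counts, and 825, 405, 135 and 43 with at least 10, 20, 50 or 100 THZ1 counts, against 261. Without 1 library it was 272 to 299. It was 96 among members that overlap no other gene's span, an alternative chosen after seeing the data, as was keeping the identifiers without an entry (281). All 261 members were called higher under every alternative fit run, including the replicate block, which follows from the rule. The median log2 fold change of the members was 7.05 with RLE factors, 7.17 with upper quartile factors, 6.76 with library sizes alone, 7.41 with DESeq2, 4.94 with a prior count of 2, 6.99 with the replicate block and 6.91 to 7.05 without 1 library, against 6.99. The cause of these differences was not tested. The median over all genes was shifted to 0.22 with upper quartile factors and to −0.22 with library sizes alone, so no scaling tried turned a member's direction. A filter of at least 10 counts in every library left 0 members and gave no value.

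The protein-coding share was 58.1% with no DMSO count allowed, 62.8% with at least 100 THZ1 counts and 62.5% among members that overlap no other gene's span, against 46.7%, and 45.7 to 48.8% without 1 library. With all annotated neighbours counted, 82.4% of the members had a neighbour in 1 of the classes and 17.6% had none. Such a neighbour was found for 90.3% of the other genes called higher, 88.0% of the genes tested and 75.7% of all genes of the count table. In or over a gene span on the opposite strand were 22.2% of the members, beside 14.3%, 13.5% and 19.8% of these groups. The members' shares with and without a neighbour were 76.6% and 23.4% at 5 kb, 94.3% and 5.75% at 50 kb, and 60.5% and 39.5% with neighbours of at least 30 counts. Downstream members made up 16.5%, and 9.20% at 5 kb and 29.1% at 50 kb. Exon overlap on the same and the opposite strand made up 9.20% and 24.9%, and 1.92% and 16.9% with neighbours of at least 30 counts. The median difference in the deposited log2 table was 4.26 with a pseudocount of 0.1, against 3.19. All 728 other fits of 56 named genes kept their direction and their side of the threshold on the adjusted p-value. This follows from the choice of these genes, which lie within the count limits of the rule or just outside them. The size of a fitted fold, however, rests on few DMSO counts. It moved by over 1.5 times in 127 of the 261 members without 1 DMSO library, and in 0 without 1 THZ1 library. Without DMSO replicate 1 (36 members), the log2 fold change of SLC17A7 went from 7.24 to 10.06 and that of KLKP1 from 8.75 to 11.57. Without DMSO replicate 2 (40 members), LY6G6C went from 7.46 to 10.27, AXL from 8.29 to 9.42 and SLC10A1 from 7.58 to 8.72. Without DMSO replicate 3 (51 members), GDF15 went from 6.45 to 8.79. The 43 members at 0 with DMSO have no measured ratio, only a bound that depth sets.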
